A study of Homo sapiens with 16 samples.

Results

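The 33 genes described here encode the steps that take glucose to lactate and the proteins that cells make more of when oxygen is short. They were chosen by name from the 23284 genes of the table, with earlier results of these data known, and all 33 were found. Counts of calls among them, and among the other lists below, are therefore not from lists drawn up blind to the data. The levels come from poly-adenylated RNA of human WA01 embryonic stem cells that were induced toward neural crest, and the study asked how loss of FOXB1, a forkhead transcription factor, alters that course. The groups are a KO line and a Het line, both made with 1 guide RNA that cuts at the start codon of FOXB1, and wild type (WT), for which the labels list 2 isogenic lines, isoWT1 and isoWT2. Each of these 4 lines was collected at day 5, called neural crest, and at day 3, called pre-neural crest, with 2 replicates per group and 16 samples in all. All cells were plated at 20000 per cm2 on Matrigel with 3 µM CHIR99021, an inhibitor of GSK3 that activates WNT signalling, and with 10 µM of the ROCK inhibitor Y-27632 at the start. The medium held 2% B27 and 0.5% bovine serum albumin. The labels do not state the oxygen level of the cultures, whether the edited lines were single clones or whether replicates were separate cultures. The p-values therefore rest on the spread between these samples as the authors' test modelled it, and that spread may be technical.

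All levels, log2 changes and q-values below are taken from the authors' deposited table, which gives 1 FPKM (fragments per kilobase of transcript, scaled to library size) per gene and group. It has 6 groups, with a single WT group per day, and does not state which WT libraries entered it. The group it names HOMO was read as the KO line. A gene was called higher or lower where its q-value was below 0.05. No value per library was at hand, so the error of a level or change is the standard error (SE) that the deposited test scores imply, and the depth is unknown. Relative to the level, this SE had a minimum of 0.185 and a median of 0.220 over the members and groups. How far it reflects the scatter of a gene's own replicates is unknown. FOXB1 itself stood at 1.86 FPKM in KO, 4.47 FPKM in Het and 5.51 FPKM in WT at day 5, and at 15.5, 7.73 and 18.3 FPKM in KO, Het and WT at day 3. An edit at the start codon need not lower the RNA, so these levels do not check the genotype.

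Cells take up glucose through the GLUT transporters and split it in the cytosol, and lactate dehydrogenase regenerates the NAD that the pathway uses. Under low oxygen the prolyl hydroxylases of the EGLN family stop marking the HIF alpha subunits for degradation. HIF then binds DNA with its partner ARNT at short sites with the core ACGTG or GCGTG and activates genes of glucose uptake, glycolysis, mitophagy, collagen hydroxylation and blood vessel growth. Embryonic stem cells and cells of the early neural plate are known for high glycolysis also in normal oxygen, and glycolysis has been linked to the migration of crest cells in chick embryos.

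At day 5 the cells labelled neural crest differed between genotypes in crest markers. SOX10, a defining crest factor, stood at 34.6 FPKM in KO, 7.07 FPKM in Het and 0.388 FPKM in WT, and FOXD3, an early crest factor, at 18.6, 4.49 and 0.198 FPKM in KO, Het and WT. Summed over 10 crest markers the level was 265 FPKM in KO, 113 FPKM in Het and 64.2 FPKM in WT. SNAI2 and NGFR did not follow that order and were lower in Het than in WT, while the other crest markers followed it. SNAI2 stood at 28.5, 19.5 and 23.2 FPKM and NGFR at 19.7, 14.3 and 17.5 FPKM in KO, Het and WT. Summed over 6 neural progenitor markers it was 163 FPKM in KO, 322 FPKM in Het and 426 FPKM in WT, and 5 of those 6 were called lower in KO than in WT. The part of this cell makeup in the results below was not tested. In bulk RNA, fewer cells of a type and less RNA per cell cannot be told apart.

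The log2 changes of all genes also followed the GC content of their transcripts. The Spearman correlation across genes, which are not independent replicates, was -0.50 for WT day 5 against day 3 and -0.57 for Het against WT at day 3. It was 0.41 for Het against WT at day 5, -0.44 for KO against WT at day 3 and 0.15 for KO against WT at day 5. Values within GC bins, which are changes minus the median of genes of like GC content, are given where they bear on a call. Calls within GC bins, or after centring on the median of expressed genes, did not use the deposited q-value. They came from a normal test with the implied SE scaled to the deposited p-values, adjusted by Benjamini-Hochberg within the comparison. A change of call there mixes the change of test with that of the values, and these were not separated. The part of GC content in the calls was not tested further.

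Among the members, glycolytic enzymes had the highest levels and some classical hypoxia markers the lowest. Of the 33 genes, 13 reached 100 FPKM in a group and 29 stood at 1 FPKM or more in all 6 groups. GAPDH, the dehydrogenase in the middle of the pathway, had the highest level, 6952 ± 2294 FPKM in WT at day 5 (implied SE). ENO1, TPI1 and SLC2A3 came next, with highest levels of 1707, 1654 and 1342 FPKM, all in WT at day 5. At the other end CA9, a carbonic anhydrase of the cell surface that hypoxic tumour cells express, ranged from 0.068 to 0.382 FPKM and was not tested by the authors in any comparison used here. ANKRD37, a HIF target with ankyrin repeats, ranged from 0.334 to 1.30 FPKM, and the SE of its log2 changes lay between 3.45 and 4.95, so its changes were not resolved. The other 31 genes had SE from 0.39 to 0.91 and enter the counts together with ANKRD37 as 32 tested members. Among the 6 groups, WT at day 5 held the highest level of 20 of the 33 genes. The share of all genes highest in that group was not computed, so this count has no background beside it. GAPDH, ENO1, LDHA and other glycolytic genes have processed pseudogenes, and SLC2A3 has a near-identical neighbour, SLC2A14, so how reads were shared among copies is uncertain for them.

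**Figure D1:**
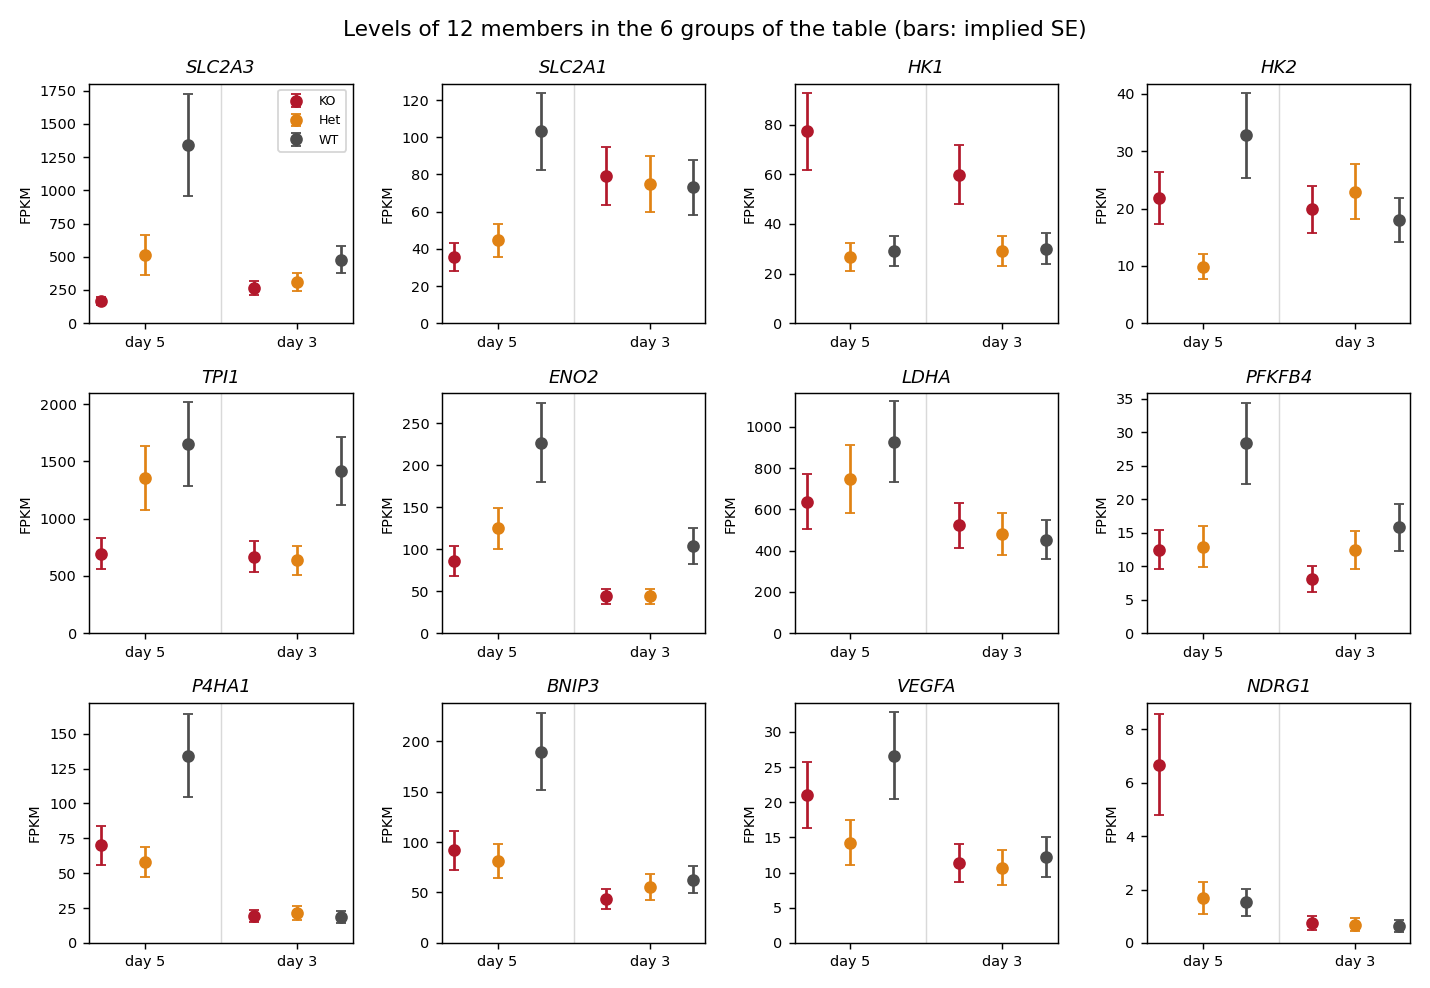
FPKM of 12 members (vertical axes, linear and from 0) in the KO, Het and WT groups at day 5 and at day 3; points are the authors' group values and bars the implied SE. SLC2A3, P4HA1, BNIP3 and PFKFB4 were highest in WT at day 5, HK1 was higher in KO than in Het and WT at both days, and NDRG1 reached 6.68 FPKM in KO at day 5.

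In WT at day 5, 4 of 5 oxygen sensors and dioxygenases, 2 of 2 mitophagy receptors, 2 of 2 tested secreted factors, 3 of 4 growth and stress regulators and 4 of 14 glycolytic enzymes were called higher than at day 3. By the q-values of the authors' deposited table, 17 of the 32 tested members were higher at day 5 and 1 was lower, while 11.2% of all 14680 tested genes were higher and 10.4% lower. The median log2 change of the members was 0.84, beside 0.03 for all genes at 1 FPKM or more at both days, and 0.73 within GC bins. The 17 rises spanned log2 changes from 0.84 to 2.87. All 17 were also called within GC bins. Cell markers moved over the same days in WT. The 10 crest markers summed to 64.2 FPKM at day 5 and 18.4 FPKM at day 3, with 6 of 7 tested called higher, and the 6 markers of pluripotent cells to 79.6 and 153 FPKM, with 3 of 5 tested called lower. POU5F1, a defining pluripotency factor, stood at 3.61 FPKM at day 5 and 45.7 FPKM at day 3 (-3.66, SE 0.58). Their part in the changes of the members was not tested.

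P4HA1, a subunit of the prolyl hydroxylase that stabilises collagen, had the largest change. It stood at 134 ± 30.0 FPKM at day 5 and 18.4 ± 4.14 FPKM at day 3 in WT (log2 change 2.87, SE 0.46, q = 0.00126). P4HA2, its sister subunit, stood at 10.4 FPKM at day 5 and 4.07 FPKM at day 3 (1.36, SE 0.55). KDM3A, a histone demethylase that HIF induces, was higher at day 5 (0.97, SE 0.44). Of the oxygen sensors, EGLN1 was higher, at 7.94 FPKM at day 5 and 3.21 FPKM at day 3 (1.31, SE 0.50), while EGLN3 at 16.9 and 12.8 FPKM was not called (0.40, SE 0.50).

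Both mitophagy receptors, which mark mitochondria for degradation, were higher at day 5 in WT. BNIP3 stood at 189 ± 38.3 FPKM at day 5 and 62.7 ± 13.7 FPKM at day 3 (1.60, SE 0.43), and BNIP3L at 57.3 and 26.1 FPKM (1.13, SE 0.42). Of the secreted factors, VEGFA, the growth factor of blood vessels, stood at 26.6 FPKM at day 5 and 12.2 FPKM at day 3 (1.12, SE 0.47). ADM, the vasodilator adrenomedullin, stood at 4.67 and 1.01 FPKM (2.21, SE 0.83). Of the regulators of growth, DDIT4, an inhibitor of mTORC1, was higher (1.15, SE 0.45), as were the MYC antagonist MXI1 (1.08, SE 0.55) and NDRG1, a stress-induced gene (1.25, SE 0.69).

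Of the 14 glycolytic enzymes, 4 were higher and 1 was lower at day 5 in WT in the authors' deposited table. HK2, the inducible hexokinase, stood at 32.8 FPKM at day 5 and 18.0 FPKM at day 3 (0.87, SE 0.45). PGK1, an ATP-forming kinase, stood at 529 and 282 FPKM (0.91, SE 0.42), and LDHA, which forms lactate, at 927 and 452 FPKM (1.04, SE 0.43). ENO2, the neuronal enolase, stood at 227 and 104 FPKM (1.13, SE 0.42). PFKL, the liver form of phosphofructokinase, was lower, at 24.8 FPKM at day 5 and 42.4 FPKM at day 3 (-0.78, SE 0.43), but its change was -0.15 within GC bins and was not called there. GAPDH, ENO1, TPI1, GPI, PGAM1, HK1 and PFKP had log2 changes between -0.44 and 0.22 and were not called. SLC2A3, the high-affinity transporter GLUT3, stood at 1342 ± 382 FPKM at day 5 and 477 ± 102 FPKM at day 3 (1.49, SE 0.51). SLC2A1, the widespread transporter GLUT1, was not called, at 103 and 73.1 FPKM. PFKFB4, which makes an activator of phosphofructokinase, was higher (0.84, SE 0.44).

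The stretches upstream of 4 genes that were higher at day 5 in WT are shown for the places of the ACGTG core in them. That core was searched on both strands (ACGTG or CACGT) in the 250 bases before the first RefSeq start listed for each gene. Any other starts of a gene were not searched. The starts are on GRCh38.p14, a later build than the hg19 of the table. Matches are in capitals, and CACGTG, which is its own reverse complement and is also the E-box bound by MYC, counts on both strands. P4HA1, which had the largest change, BNIP3 and LDHA hold matches of ACGTG, and PFKFB4 holds none of that form but 1 of the other core.
P4HA1, chr10:73096867-73097116, minus strand: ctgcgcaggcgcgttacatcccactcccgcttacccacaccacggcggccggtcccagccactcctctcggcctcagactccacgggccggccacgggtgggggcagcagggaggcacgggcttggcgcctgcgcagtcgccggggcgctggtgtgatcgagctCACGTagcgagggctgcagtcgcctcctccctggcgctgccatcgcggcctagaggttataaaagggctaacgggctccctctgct
BNIP3, chr10:131981924-131982173, minus strand: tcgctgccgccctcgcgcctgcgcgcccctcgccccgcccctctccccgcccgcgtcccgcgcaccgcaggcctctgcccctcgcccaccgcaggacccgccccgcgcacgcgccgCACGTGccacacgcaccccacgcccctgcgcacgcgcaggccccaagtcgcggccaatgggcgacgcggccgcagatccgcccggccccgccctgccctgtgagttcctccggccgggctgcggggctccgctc
LDHA, chr11:18394313-18394562, plus strand: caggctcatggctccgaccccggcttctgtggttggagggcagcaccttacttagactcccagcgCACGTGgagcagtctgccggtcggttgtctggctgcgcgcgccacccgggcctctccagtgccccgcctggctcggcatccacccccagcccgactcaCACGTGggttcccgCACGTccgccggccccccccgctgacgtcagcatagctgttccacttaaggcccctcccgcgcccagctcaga
PFKFB4, chr3:48556804-48557053, minus strand: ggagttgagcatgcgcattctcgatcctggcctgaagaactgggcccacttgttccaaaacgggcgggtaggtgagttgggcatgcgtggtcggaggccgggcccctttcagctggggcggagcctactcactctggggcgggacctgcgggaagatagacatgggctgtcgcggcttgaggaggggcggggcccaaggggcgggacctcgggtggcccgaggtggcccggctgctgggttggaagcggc
The P4HA1 match begins 86 bases before the start. BNIP3 holds 1 CACGTG, whose matches on the 2 strands begin 134 and 133 bases before the start. LDHA holds 5 matches in 2 CACGTG and a separate CACGT, which begins 73 bases before the start. A promoter was found for 29 of the 33 members, and 14 of these (48.3%) held a match. Among the members higher at day 5 in WT, 8 of 13 (61.5%) held a match, and among those tested and not called, 5 of 14 (35.7%). A match was held by 18.5% of all 35116 promoters listed by RefSeq, which were not reduced to 1 per gene. Of 8629 promoters of genes at 1 FPKM or more at both days in WT, 1 per gene, 23.8% held a match. The other core, searched as GCGTG or CACGC and left in lower case above, occurs 1 time in the PFKFB4 stretch, 4 times in that of BNIP3 and 0 times in those of P4HA1 and LDHA. It was held by 11 of the 29 member promoters (37.9%), by 32.2% of all promoters and by 46.8% of those of the expressed genes. The member promoters had a median GC content of 69.6%, beside 65.2% for those expressed genes, and a richer GC content gives more CG-containing matches. The members were chosen as hypoxia and glycolysis genes, so these shares describe the choice, and a match is not a measured binding site.

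Over the same 2 days fewer members were called higher in the edited lines than in WT. A call needed a smaller test score in WT, where the same score went with a smaller deposited p-value. The factor that brings the implied SE to the deposited p-values was 0.546 in WT, 0.706 in Het and 0.711 in KO. The labels list 4 WT samples per day and 2 of each edited line. The part of this in the counts was not tested. By the q-values of the authors' deposited table, 8 members were higher and 1 was lower in KO, beside 7.29% of 14995 tested genes higher and 4.53% lower. In Het 8 were higher and 2 were lower, beside 4.74% of 14795 tested genes higher and 2.83% lower. The median log2 change of the members was 0.60 in KO, 0.50 in Het and 0.84 in WT. In KO it was 0.39 with a pseudocount of 1 and 0.39 over members at 1 FPKM or more at both days. Of the 8 genes higher in KO, 7 (87.5%) were among the 17 of WT, of which they made 41.2%. Of the 8 genes higher in Het, 5 (62.5%) were among the 17 of WT, of which they made 29.4%.

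P4HA1, P4HA2, DDIT4 and ENO2 were called higher at day 5 in all 3 genotypes. P4HA1 stood at 70.0 FPKM at day 5 and 19.3 FPKM at day 3 in KO (1.86, SE 0.44), and at 58.2 and 21.6 FPKM in Het (1.43, SE 0.42). Its day 3 levels were 19.3, 21.6 and 18.4 FPKM in KO, Het and WT, and no pair of genotypes was called different for it at that day. DDIT4 stood at 165 FPKM at day 5 and 45.0 FPKM at day 3 in KO (1.88, SE 0.42), and at 221 and 58.7 FPKM in Het (1.92, SE 0.43). NDRG1 and MXI1 were called higher in KO and not in Het. NDRG1 stood at 6.68 ± 1.89 FPKM at day 5 and 0.757 ± 0.268 FPKM at day 3 in KO (3.14, SE 0.65), and at 1.68 and 0.687 FPKM in Het (1.29, SE 0.73). MXI1 stood at 17.1 and 5.21 FPKM in KO (1.71, SE 0.50). Whether KO and Het differ in these changes over time was not tested.

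Some members were lower at day 5 in an edited line. SLC2A1 was called lower in KO, with 35.7 ± 7.54 FPKM at day 5 and 79.1 ± 15.7 FPKM at day 3 (-1.15, SE 0.42), and had a change of -0.75 (SE 0.41, not called) in Het. HK2 was called lower in Het, with 9.87 ± 2.22 FPKM at day 5 and 22.9 ± 4.79 FPKM at day 3 (-1.22, SE 0.44), and stood at 21.9 and 19.9 FPKM in KO. PFKFB3, which like PFKFB4 makes an activator of phosphofructokinase, was called lower in Het (-1.03, SE 0.44) and had a change of -0.80 (SE 0.43, not called) in KO. Conversely, TPI1, ALDOA and ALDOC, enzymes of the upper and middle pathway, were called higher at day 5 in Het, with log2 changes of 1.09, 0.93 and 1.60. TPI1 lies on chromosome 12, whose other expressed genes had a median change of 0.33 in Het (25.1% below 0), beside 0.03 elsewhere. TPI1 was higher than that median by 0.77. The chromosome median was 0.09 in KO and 0.09 in WT over the same days. The call of ALDOA in Het was not made within GC bins, where its change was 0.86.

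**Figure D2:**
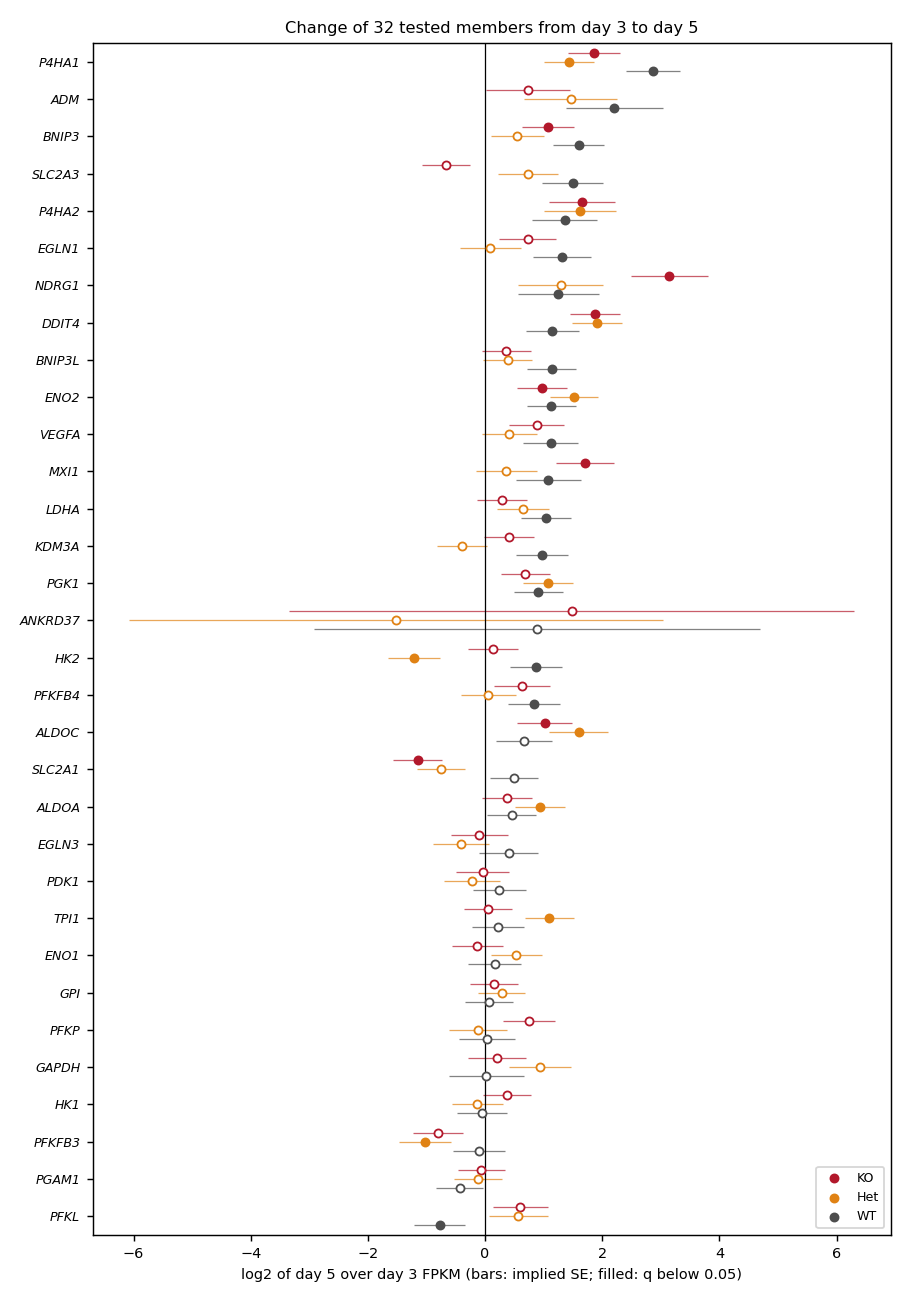
Log2 of day 5 over day 3 FPKM (horizontal axis) for the 32 tested members, ordered by their change in WT, with KO, Het and WT drawn from top to bottom in each row; bars are the implied SE and filled points have a q-value below 0.05. Most WT points in the upper part lie to the right of 0, P4HA1 furthest at 2.87, while SLC2A1 in KO (-1.15) and HK2 in Het (-1.22) lie to the left.

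The change over time was then compared between genotypes, as the change in the edited line minus that in WT. With the SE as implied, 0 of 32 members passed a Benjamini-Hochberg adjustment over all genes tested, for either line, by a normal test of the difference. At an unadjusted p below 0.05 there were 4 members for KO (2 lower and 2 higher) and 5 for Het (4 lower and 1 higher), while 4.89% of 14143 and 1.94% of 14250 genes were below that p. Of all tested genes 0.205% passed the adjustment as higher and 0.113% as lower for KO, and 0.0702% and 0.0421% for Het. The test scores, read as normal scores, give larger p-values than those deposited. With the SE scaled to the deposited p-values, 4 members passed for KO and 3 for Het, beside 3.06% higher and 2.21% lower of all genes for KO and 0.793% and 0.386% for Het.

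The members that passed with the scaled SE were the glucose transporters, a phosphofructokinase and NDRG1 for KO, and HK2, P4HA1 and KDM3A for Het. SLC2A3 differed by -2.16 (scaled SE 0.41, implied SE 0.66) and SLC2A1 by -1.64 (scaled SE 0.37, implied SE 0.59) in KO minus WT. PFKL differed by 1.38 (scaled SE 0.41, implied SE 0.64) and NDRG1 by 1.89 (scaled SE 0.60, implied SE 0.95). Within GC bins the change of PFKL over time was 0.54 in KO and -0.15 in WT. The correlation of changes over time with GC content was -0.50 in WT and -0.03 in KO. Differences between genotypes in the change over time were not tested within GC bins. In Het minus WT, HK2 differed by -2.08 (scaled SE 0.40, implied SE 0.63), P4HA1 by -1.44 (scaled SE 0.39, implied SE 0.62) and KDM3A by -1.37 (scaled SE 0.39, implied SE 0.62). The median difference of the members was -0.22 for KO and -0.43 for Het, beside 0.05 and 0.02 for all genes. Both lines are set against the same WT groups.

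At day 5 both glucose transporters, ENO2, PFKFB4, P4HA1 and BNIP3 were called lower than WT in each edited line. By the q-values of the authors' deposited table, 4 members were higher and 9 were lower in KO, beside 7.58% of 14936 tested genes higher and 5.68% lower. In Het 0 members were higher and 11 were lower, beside 1.14% of 14561 tested genes higher and 1.02% lower. The median log2 change was -0.41 in KO and -0.43 in Het, beside 0.01 and -0.05 for all genes at 1 FPKM or more. Within GC bins the medians were -0.44 and -0.38. Both comparisons, and the WT change over time, use the same WT day 5 group, so an error in a WT level enters all of them.

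SLC2A3 had the largest change in KO, and HK2 (-1.73) the largest in Het. SLC2A3 stood at 167 ± 33.5 FPKM in KO, 514 ± 148 FPKM in Het and 1342 ± 382 FPKM in WT at day 5. The log2 change of SLC2A3 was -3.00 (SE 0.50) in KO and -1.38 (SE 0.58) in Het. SLC2A1 stood at 35.7, 44.6 and 103 FPKM in KO, Het and WT, and its log2 change was -1.53 (SE 0.42) in KO and -1.21 (SE 0.41) in Het. Both transporters were thus called lower in each edited line.

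BNIP3 stood at 91.7, 81.4 and 189 FPKM in KO, Het and WT at day 5, and was called lower in KO (-1.05, SE 0.42) and in Het (-1.22, SE 0.42). P4HA1 stood at 70.0, 58.2 and 134 FPKM and was called lower in KO (-0.94, SE 0.43) and in Het (-1.21, SE 0.42). PFKFB4, at 12.5, 12.9 and 28.3 FPKM, and ENO2, at 86.0, 124.7 and 227 FPKM, were called lower in each line as well. The call of ENO2 in Het (-0.86) was not made when changes were centred on the median of all genes at 1 FPKM or more, where its change was -0.82, and was made within GC bins (-0.92). BNIP3L was called lower in KO (-0.81, SE 0.41) and had a change of -0.54 (not called) in Het.

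Other members were called in 1 of the edited lines at day 5. HK2, EGLN1, KDM3A, PDK1 and VEGFA were called lower in Het and not in KO. HK2 stood at 21.9 FPKM in KO, 9.87 FPKM in Het and 32.8 FPKM in WT (Het log2 change -1.73, SE 0.46). EGLN1 stood at 8.19, 3.73 and 7.94 FPKM (Het -1.09, SE 0.49). PDK1, a kinase that shuts pyruvate out of the citric acid cycle, stood at 18.9, 9.67 and 18.1 FPKM (Het -0.91, SE 0.47). VEGFA stood at 21.0, 14.2 and 26.6 FPKM (Het -0.90, SE 0.47). The Het calls of EGLN1, KDM3A, PDK1 and VEGFA were not made within GC bins, where the changes were -0.97, -0.94, -0.69 and -0.96. Adjustment of the deposited p-values within that comparison alone left 6 lower members in Het, of 11.

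HK1, PFKP, NDRG1 and MXI1 were called higher in KO than in WT at day 5. HK1, the constitutive hexokinase, stood at 77.3 ± 15.7 FPKM in KO, 26.6 ± 5.73 FPKM in Het and 29.1 ± 6.05 FPKM in WT (KO log2 change 1.41, SE 0.42). PFKP, the platelet form of phosphofructokinase, stood at 35.3, 18.4 and 16.2 FPKM (KO 1.12, SE 0.45). NDRG1 stood at 6.68, 1.68 and 1.51 FPKM (KO 2.14, SE 0.62), and MXI1 at 17.1, 6.99 and 7.84 FPKM (KO 1.12, SE 0.50). TPI1 and ALDOA were called lower in KO alone among the edited lines, with log2 changes of -1.26 (SE 0.43) and -0.76 (SE 0.42). LDHA, PGK1, GPI, PGAM1 and ALDOC were called in neither line at day 5.

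**Figure D3:**
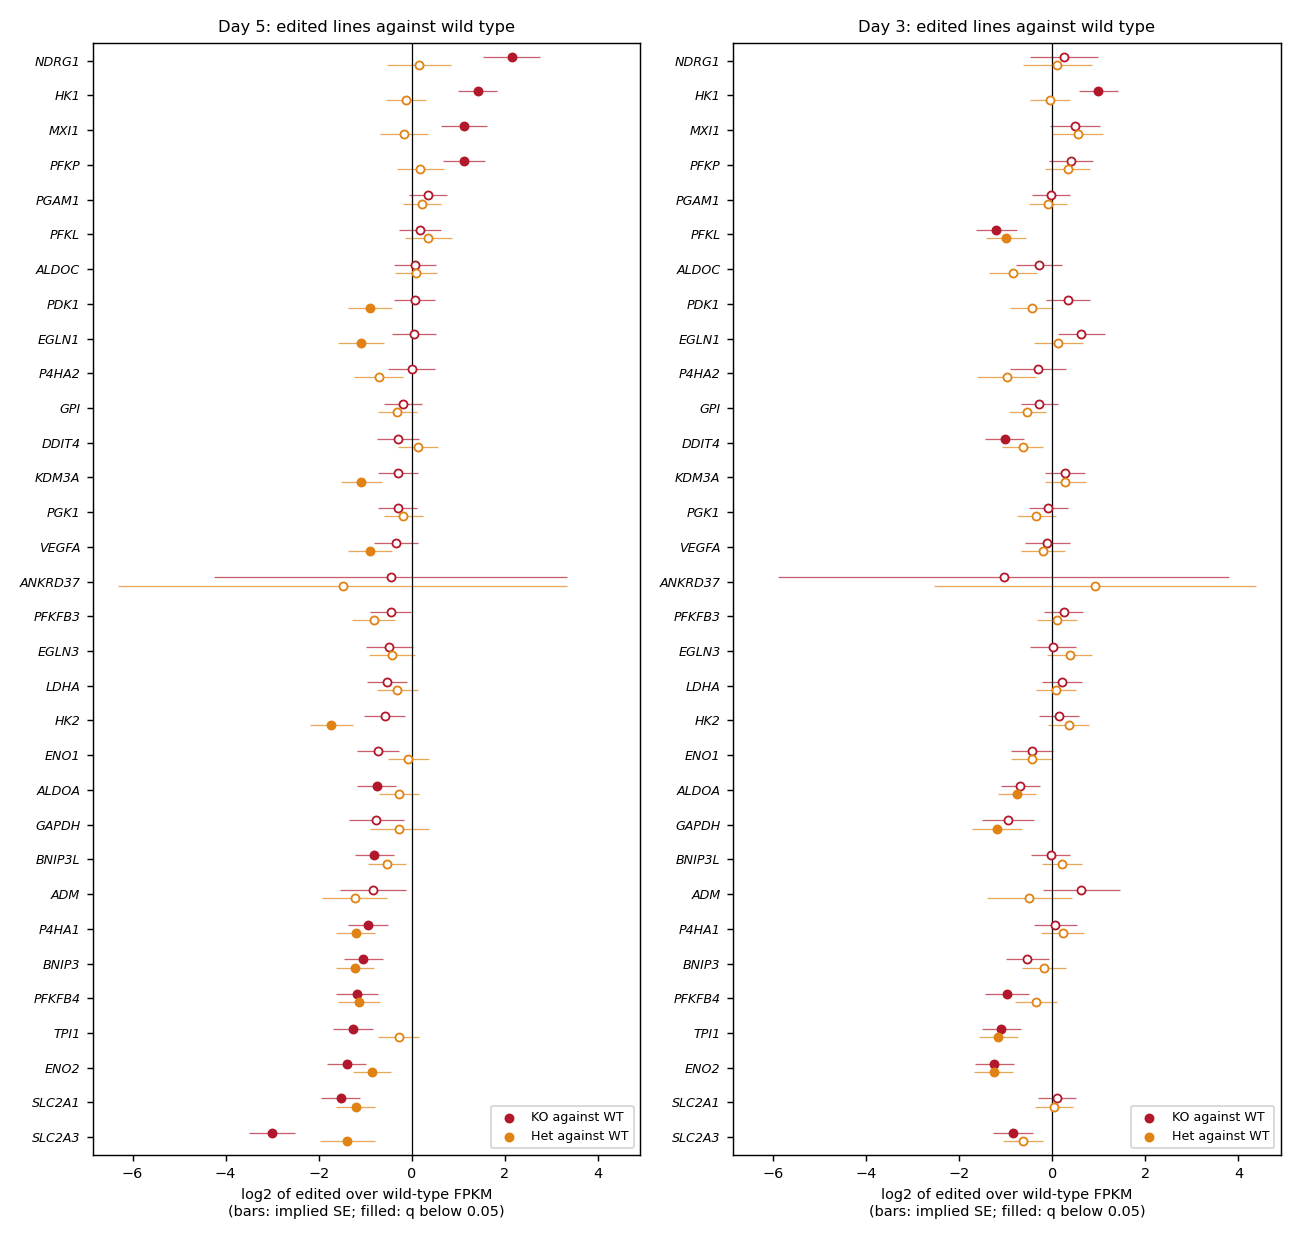
Log2 of edited over WT FPKM (horizontal axes) at day 5 and at day 3 for the 32 tested members, ordered by their change in KO at day 5, with KO above Het in each row; bars are the implied SE and filled points have a q-value below 0.05. At day 5 the points run from SLC2A3 in KO (-3.00) to NDRG1 in KO (2.14), and at day 3 most of them lie near 0, with TPI1 and ENO2 below -1 in both lines.

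At day 3, TPI1, ENO2 and PFKL were called lower than WT in each edited line. By the q-values of the authors' deposited table, 1 member was higher and 6 were lower in KO, beside 4.34% of 14678 tested genes higher and 5.17% lower. In Het 0 were higher and 5 were lower, beside 1.68% of 14618 tested genes higher and 4.63% lower. The median log2 change was -0.08 in KO and -0.18 in Het, and -0.07 and -0.01 within GC bins. All 5 oxygen sensors and dioxygenases, both mitophagy receptors, VEGFA and ADM were called in neither line. Cell markers differed at day 3 as well. The 10 crest markers summed to 85.8 FPKM in KO, 65.5 FPKM in Het and 18.4 FPKM in WT, with 4 of 10 called higher in KO and 5 of 10 in Het. The 6 neural progenitor markers summed to 202, 225 and 365 FPKM, with 3 of 6 called lower in KO and 2 of 6 in Het. The 6 markers of pluripotent cells summed to 204, 101 and 153 FPKM, with 2 of 6 tested called higher in KO and 2 of 5 called lower in Het. The 8 markers of mesoderm and endoderm summed to 21.0, 3.93 and 1.83 FPKM, with FOXA2 listed at 0 in Het and WT, and 3 of 4 tested called higher in KO. Their part in the results at day 3 was not tested.

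TPI1, which interconverts the 2 triose phosphates, stood at 665, 636 and 1418 FPKM in KO, Het and WT at day 3. Its log2 change was -1.09 (SE 0.42) in KO and -1.16 (SE 0.42) in Het. ENO2 stood at 43.8, 43.5 and 104 FPKM (KO -1.24, SE 0.42; Het -1.25, SE 0.42). PFKL stood at 18.5, 21.2 and 42.4 FPKM (KO -1.20, SE 0.45; Het -0.996, SE 0.43), but within GC bins its change was -0.63 in KO and -0.44 in Het, and neither was called. GAPDH stood at 3566, 3002 and 6848 FPKM and was called lower in Het (-1.19, SE 0.54) and not in KO (-0.94, SE 0.55, q = 0.0682). ALDOA was called lower in Het (-0.75, SE 0.41). The Het calls of GAPDH and ALDOA were not made within GC bins, where the changes were -0.84 and -0.57.

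SLC2A3, PFKFB4 and DDIT4 were called lower in KO at day 3. SLC2A3 stood at 265 FPKM in KO, 310.3 FPKM in Het and 477 FPKM in WT (KO log2 change -0.85, SE 0.43). DDIT4 stood at 45.0, 58.7 and 91.2 FPKM (KO -1.02, SE 0.42). PFKFB4 stood at 8.06, 12.4 and 15.8 FPKM (KO -0.97, SE 0.47), a call not made within GC bins, where the change was -0.72. HK1 was the single member called higher, with 59.8 FPKM in KO, 29.1 FPKM in Het and 30.0 FPKM in WT (KO 0.99, SE 0.42). SLC2A1 stood at 79.1, 74.998 and 73.1 FPKM and was called in neither line.

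KO and Het can be compared without the WT groups, and more members were called between them at day 5 than at day 3. By the q-values of the authors' deposited table, 7 members were higher and 2 were lower in KO than in Het at day 5, beside 5.55% of 15000 tested genes higher and 2.51% lower. At day 3, 1 was higher and 0 were lower, beside 2.3% of 14624 tested genes higher and 0.54% lower. The member called at day 3 was HK1 (1.04, SE 0.41), which was higher at day 5 as well (1.54, SE 0.43). At day 5, HK2 (1.15, SE 0.44), EGLN1 (1.14, SE 0.48), MXI1 (1.29, SE 0.48) and NDRG1 (1.99, SE 0.65) were also higher in KO, as were PFKP (0.94, SE 0.47) and PDK1 (0.96, SE 0.45). The calls of PFKP and PDK1 were not made within GC bins, where their changes were 0.94 and 0.84. SLC2A3 (-1.62, SE 0.51) and TPI1 (-0.97, SE 0.41) were lower in KO. BNIP3, P4HA1, PFKFB4 and SLC2A1, which were lower than WT in each line, had log2 changes between -0.32 and 0.27 in KO against Het and were not called. KDM3A (0.79, SE 0.42) and VEGFA (0.56, SE 0.46), called lower than WT in Het, and ALDOA (-0.48, SE 0.43) and BNIP3L (-0.26, SE 0.41), called lower than WT in KO, were not called between the lines either.

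The proportions of paired isozymes differed between the groups. HK1 made up 77.9% of the summed HK1 and HK2 level in KO, 72.9% in Het and 47.0% in WT at day 5, and 75.01%, 56.0% and 62.6% at day 3. PFKP made up 55.7% of the summed PFKP and PFKL level in KO, 36.8% in Het and 39.6% in WT at day 5, and 53.2%, 48.5% and 27.2% at day 3. PFKM, another phosphofructokinase gene left out of this pair, stood above both in every group. Its levels were 73.5, 64.1 and 68.6 FPKM in KO, Het and WT at day 5, and 43.0, 35.8 and 56.2 FPKM at day 3. ENO2 stayed the minor enolase in every group, with ENO1 at 92.3%, 92.9% and 88.3% of their sum in KO, Het and WT at day 5 and 96.3%, 96.3% and 93.6% at day 3. ALDOA made up 92.8% to 96.6% of the summed ALDOA and ALDOC level in the 6 groups. These are shares of FPKM, with no test and no allowance for GC content. PFKL, which enters the PFKP share, had a change over time in WT of -0.78, and of -0.15 within GC bins.

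SLC2A3, ENO2, TPI1 and GAPDH lie on the short arm of chromosome 12, and the genes of that chromosome as a whole were lower in both edited lines. The other expressed genes of chromosome 12 had a median log2 change of -0.50 in KO (676 genes, 79.7% below 0) and -0.27 in Het (690 genes, 81.7% below 0) against WT at day 5. At day 3 the medians were -0.47 in KO (88.9% below 0) and -0.52 in Het (90.1% below 0), while genes elsewhere had medians between -0.03 and 0.02 in these 4 comparisons. Relative to the chromosome median, SLC2A3 was lower by 2.50 on the log2 scale in KO at day 5 and by 1.12 in Het at day 5, but by 0.38 in KO and 0.11 in Het at day 3. ENO2 was lower than the chromosome median by 0.90 in KO and 0.60 in Het at day 5, and by 0.77 and 0.74 at day 3. TPI1 was lower by 0.76 in KO and 0.02 in Het at day 5, and by 0.62 and 0.64 at day 3. GAPDH was lower by 0.26 in KO and 0.002 in Het at day 5, and by 0.47 and 0.67 at day 3. In KO against Het at day 3 the chromosome median was 0.02 and all 4 genes lay between -0.23 and 0.25. In KO against Het at day 5 the chromosome median was -0.18 (65.5% below 0), and SLC2A3 (-1.62) and TPI1 (-0.97), the 2 members called lower there, were lower than that median by 1.43 and 0.79. EGLN1 lies on the long arm of chromosome 1, where the median of the other genes in KO was 0.37 at day 5 and 0.60 at day 3 against WT, and 0.45 and 0.58 against Het. Line, genotype and any difference in chromosome copies cannot be told apart here.

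**Figure D4:**
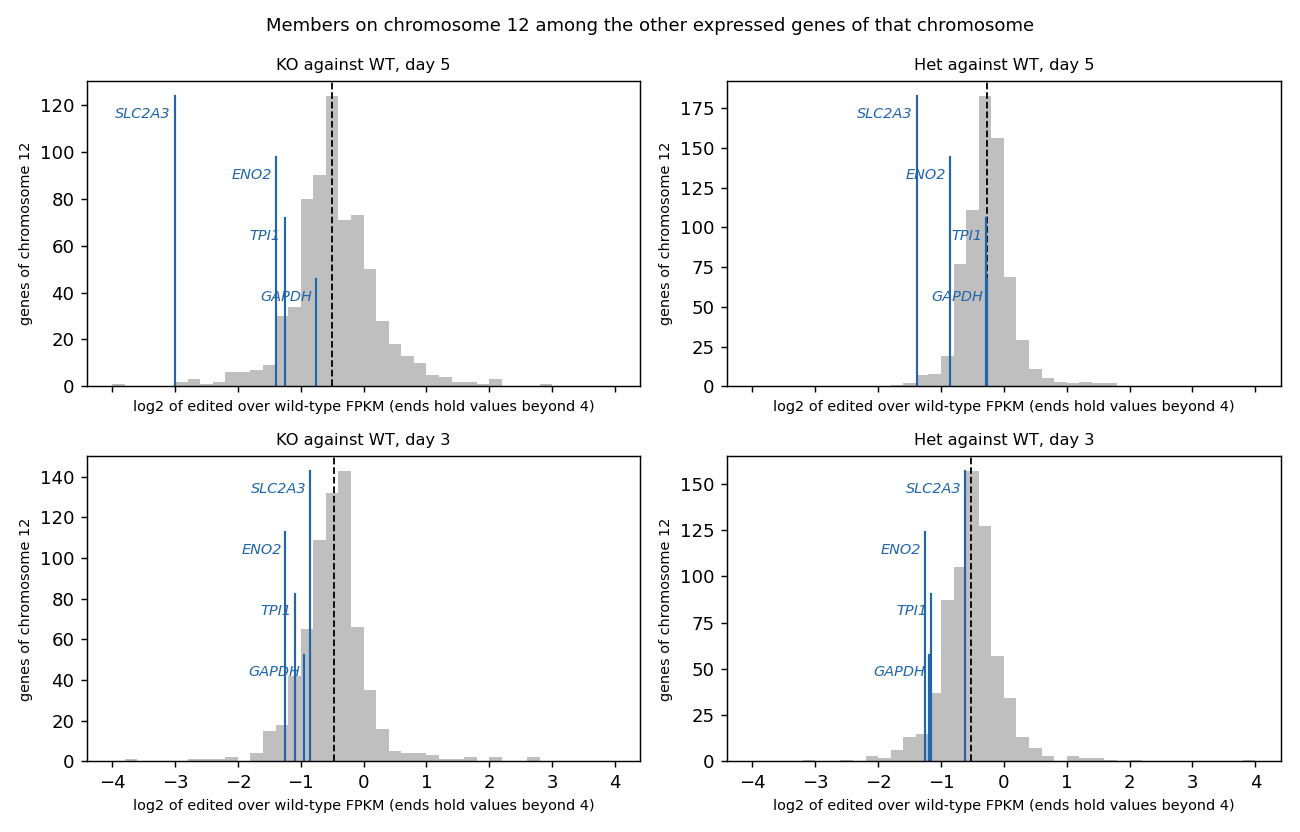
Histograms of the log2 of edited over WT FPKM (horizontal axes) for expressed genes of chromosome 12 in KO and Het at day 5 (upper row) and day 3 (lower row), with their median dashed and the 4 members on that chromosome as blue lines. The bulk of the chromosome lies below 0 in each panel, and SLC2A3 in KO at day 5 lies far below it at -3.00.

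Other genes of glycolysis and lactate transport were described from a list beside the members. In WT, 7 of 20 tested were higher at day 5 and 0 were lower in the authors' deposited table, beside 11.2% and 10.4% of all tested genes. SLC16A3, the exporter of lactate, stood at 29.1 FPKM at day 5 and 9.19 FPKM at day 3 (1.66, SE 0.51), and SLC2A14, the neighbour of SLC2A3, at 249.1 and 90.9 FPKM (1.45, SE 0.43). SLC2A12 and ENO3 had log2 changes of 1.73 and 1.22. At day 5, 3 of 21 tested were lower in KO and 2 of 20 in Het than in WT, and 0 were higher. Of all tested genes 5.68% were lower in KO and 1.02% in Het, and 7.58% and 1.14% higher. SLC16A3 stood at 6.29 FPKM in KO, 10.9 FPKM in Het and 29.1 FPKM in WT (KO -2.21, SE 0.52; Het -1.41, SE 0.53). SLC2A14 stood at 32.1, 104.3 and 249.1 FPKM (KO -2.96, SE 0.44, and Het -1.26, SE 0.46). How reads were shared between SLC2A14 and SLC2A3 is uncertain, so its calls are not separate from those of SLC2A3. It also lies on chromosome 12, whose genes as a whole were lower in both edited lines. At day 3, SLC16A3 was also called lower in KO (-2.10, SE 0.59) and in Het (-2.74, SE 0.66), among 2 of 21 lower in KO and 1 of 21 in Het. Of all tested genes 5.17% were lower in KO and 4.63% in Het at day 3, so these counts are near the background.

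Of 37 tested other hypoxia response genes, 18 were higher and 0 were lower at day 5 than at day 3 in WT in the authors' deposited table. Of all tested genes 11.2% were higher and 10.4% lower there. In the edited lines 11 of 36 were higher in KO and 6 of 36 in Het, and 0 were lower. Of all tested genes 7.29% were higher in KO and 4.74% in Het, and 4.53% and 2.83% lower. BHLHE40, a transcriptional repressor, stood at 2.06 FPKM at day 5 and 0.155 FPKM at day 3 in WT (3.73, SE 0.96), RORA, a nuclear receptor, at 10.4 and 1.69 FPKM (2.61, SE 0.48) and INSIG2, a regulator of sterol synthesis, at 22.0 and 4.29 FPKM (2.36, SE 0.53). Against WT at day 5, 4 of 37 were higher and 10 lower in KO, and 0 of 37 were higher and 8 lower in Het. The shares over all tested genes were 7.58% higher and 5.68% lower in KO, and 1.14% and 1.02% in Het. RORA stood at 1.31 FPKM in KO, 3.47 FPKM in Het and 10.4 FPKM in WT (KO -2.98, SE 0.47; Het -1.58, SE 0.54). CA12, a carbonic anhydrase, stood at 61.2 FPKM in KO and 1.09 FPKM in WT (5.81, SE 0.71), and IGFBP3, a binder of insulin-like growth factors, at 60.2 and 6.82 FPKM (3.14, SE 0.52). IGFBP3 was lower in Het, at 2.22 FPKM (-1.62, SE 0.64). At day 3, 3 of 35 were higher and 3 lower in KO, and 1 of 34 was higher and 3 lower in Het. Of all tested genes at day 3, 4.34% were higher and 5.17% lower in KO, and 1.68% and 4.63% in Het. The day 3 counts are too small to be read apart from these shares.

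HIF1A, the main oxygen-labile subunit of HIF, stood at 66.7, 51.6 and 61.0 FPKM in KO, Het and WT at day 5 and at 91.4, 72.9 and 64.0 FPKM at day 3. Of 17 tested genes of the HIF machinery 1 (5.88%) was higher in KO than in WT at day 5, EPAS1, the gene of HIF-2 alpha, with 4.17 FPKM in KO, 0.155 FPKM in Het and 0.288 FPKM in WT (KO 3.86, SE 0.70). In Het at day 5, 0 of 16 were called, beside 1.14% of all tested genes higher and 1.02% lower. In WT, 1 of 16 was higher and 2 were lower at day 5 than at day 3. Among all tested genes 7.58% were higher in KO at day 5, and in WT 11.2% were higher and 10.4% lower over time, so these counts are near the background. ARNT stood at 16.8 FPKM at day 5 and 8.55 FPKM at day 3 (0.97, SE 0.46), and EGLN2, the third oxygen sensor, at 15.1 and 37.1 FPKM (-1.30, SE 0.55). At day 3, ARNT, which lies on the long arm of chromosome 1, was higher in KO than in WT (0.90, SE 0.45). The elongin gene TCEB2 was lower in KO at that day (-1.32, SE 0.48), and 0 of 16 were called in Het. Of all tested genes at day 3, 4.34% were higher and 5.17% lower in KO, and 1.68% and 4.63% in Het. With so few genes in the list, these day 3 calls cannot be read apart from those shares.

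Of 25 genes of pyruvate entry and the citric acid cycle, 1 was higher and 0 were lower in KO than in WT at day 5, and 0 were called in Het, beside 7.58% higher and 5.68% lower of all tested genes in KO. The gene higher in KO was IDH3A, a subunit of isocitrate dehydrogenase, with 13.4 FPKM in KO and 5.20 FPKM in WT (1.37, SE 0.55). In WT 1 was higher and 2 were lower at day 5 than at day 3, beside 11.2% and 10.4% of all tested genes. Of 9 pentose phosphate genes, 2 were higher and 0 lower in KO and 1 was higher and 0 lower in Het at day 5. In Het at day 5, 1.14% of all tested genes were higher and 1.02% lower. TKTL1, a transketolase-like gene, stood at 2.751 FPKM in KO, 1.06 FPKM in Het and 0.256 FPKM in WT (KO 3.42, SE 0.82; Het 2.05, SE 0.92). Of 2 tested gluconeogenic genes 0 were called in either line at day 5.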

How the data were processed

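Poly-adenylated RNA of 16 samples was sequenced, and the submitters' processing notes name TopHat2 2.1.1, Cuffdiff 2.2.1 and the build hg19. No source states the annotation version or filters. The authors deposited FPKM per gene and group for 6 groups in 15 comparisons, of which 9 were used. Per the file headers, the table also holds the log2 fold change, a test score, a p-value and a q-value. Adjusting all 222234 deposited p-values together by Benjamini-Hochberg gave the authors' q-value to within 5.28e-07, and the smallest deposited p-value is 5e-05. The design called for the deposited q-value, and no count or library value was at hand.

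The SE of a change is the deposited log2 change over the test score. The squared SE were sums of 1 variance per group (median relative error 1.93e-06 over 14681 genes), which gave the SE of each level. Only the FPKM column of each comparison's first group was read. KO at day 5, never a first group, was given the other group's FPKM times the deposited fold, which left 176 genes, none of them a member or listed gene, with no level there. Scaled SE were the implied SE times a factor per comparison that brings the test scores to the deposited p-values, between 0.546 and 0.711. Medians used log2 of FPKM plus 0.1. GC content came from the longest GENCODE 29 transcript per symbol, in 20 bins, with a value for all 33 members. The script that tests the difference of time courses on the deposited changes was itself tested on simulated data. Python 3.11.15, pandas 2.3.3 and scipy 1.17.1 were used.

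Members and 11 other lists, 5 of them cell markers, were chosen with earlier results of these data known. All members may be named, and from each other list up to 4 called genes per comparison with the largest change at 1 FPKM or more in a group. Outside that rule, HIF1A was named for its role, and SNAI2 and NGFR for their order among the crest markers, after their values were seen. The marker lists of pluripotent cells, mesoderm and endoderm, and epithelium had 1 higher and 1 lower of 6, 2 higher of 3, and 2 higher of 5 tested in KO against WT at day 5. The values of 1 called gene of the other lists are not reported here.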

Additional observations from a re-analysis of the deposited data

How the results depend on the processing

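Of 94 alternative counts, 79 stayed within 1.5 times the reported one, and the medians of the members kept their sign under all 45 alternatives tried (pseudocount 1, both groups at 1 FPKM or more, centring, GC bins, without the members on chromosome 12 and the long arm of chromosome 1). Of these medians 8 moved by 0.1 or more. For day 5 against day 3, the median of 0.84 in WT was 0.64 with pseudocount 1 and 0.73 within GC bins, that of 0.50 in Het was 0.39, 0.40 and, without the members on the 2 chromosomes, 0.40, and that of 0.60 in KO was 0.39 with pseudocount 1 and 0.39 with both groups at 1 FPKM or more. That of -0.18 in Het against WT at day 3 was -0.01 within GC bins. The lower members of Het against WT at day 5, 11 as reported, were 6 with adjustment within that comparison, 7 when centred on the median of expressed genes and 7 within GC bins. The lower members of Het against WT at day 3, 5 as reported, were 3 at q below 0.01 and 2 within GC bins. In KO against Het at day 5 a q below 0.01 left 4 higher and 1 lower, of 7 and 2. For day 5 against day 3 it left 0 lower of 1 in WT, 1 lower of 2 in Het and 5 higher of 8 in KO. Within GC bins 0 were lower in WT, and 2 were lower in KO with centring or GC bins, of 1. With the scaled SE, 4 members for KO and 3 for Het differed from WT in their change over time, of 0 each. Within GC bins, an alternative chosen after seeing the data, 70 of 83 calls of members were kept, 13 were lost, 5 were gained and 0 turned. The cause of these shifts was not tested. No paired analysis was possible because the table holds no values per library, and replicates could not be left out in turn for the same reason. Depth is unknown, so no limit of detection can be given for CA9 or ANKRD37.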
